A study of Homo sapiens with 5 samples.

Results

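The 10 genes described here encode proteins of the neuronal cytoskeleton. INA, NEFL, NEFM, NEFH and PRPH encode neurofilament and peripherin-type filament proteins, STMN2, STMN3 and STMN4 encode the neuronal stathmins, and MAP2 and TUBB3 encode neuronal microtubule proteins. They were listed by symbol with the counts of these libraries already known, so that their levels and the difference between the cell lines are given as a description. Where their calls in the fit of all genes are given, these are a description too. A row was found for 9 of the 10 genes among the 40263 genes of the count files, and 7 of these 9 passed the filter on low counts used for the comparison of the lines. NEFL, the light neurofilament subunit, was not analysed here because its GENCODE 29 identifier had no row.

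Neurofilaments are the intermediate filaments of neurons and are built by co-assembly of light, medium and heavy subunits with alpha-internexin, the product of INA, or in peripheral neurons with peripherin. Stathmins bind tubulin dimers and favour the disassembly of microtubules, and STMN2, STMN3 and STMN4 are the membrane-anchored forms best known from neurons. Microtubules are polymers of alpha- and beta-tubulin, of which TUBB3 is the isotype widely used to mark neurons, and MAP2 stabilises them in dendrites. Melanocytes derive from the neural crest, which also gives rise to peripheral neurons and glia.

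Total RNA was sequenced from 2 human cell lines after silencing of BPTF, the largest subunit of the chromatin remodelling complex NURF. The groups were 2 libraries from 501Mel cells, a melanoma line, and 3 libraries from Hermes 3A cells, a line of untransformed melanocytes. All 5 libraries came from cells infected with a lentiviral shBPTF vector and kept in puromycin at 3 µg/ml for 5 days. The study's methods name 2 shBPTF vectors, and the labels do not say which vector a library received or whether replicates were separate cultures, so that the spread between replicates may be technical. Both lines were grown in RPMI medium with foetal calf serum, to which TPA, cholera toxin, human stem cell factor and endothelin-1 were added for Hermes 3A cells. Cell line, origin and medium therefore cannot be told apart in any difference between the groups. The shControl counts were not analysed here, so that no value below measures a change on BPTF silencing. A response to silencing that differs between the lines also cannot be told apart from line, origin and medium.

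The libraries held 37856675 and 43032311 counts in the 501Mel libraries and 30073071 to 41653084 counts in the Hermes 3A libraries. Levels are given as CPM, the count scaled to the total of its library, and a count of 3 corresponded to 0.0697 to 0.0998 CPM. BPTF, the targeted gene, had 57.8 and 65.8 CPM in the 501Mel libraries and 45.8 to 54.1 CPM in the Hermes 3A libraries. All 7 melanocyte lineage markers examined reached at least 1 CPM in every library, whereas none of the 6 neuron markers with a row did. The neuron markers SYN1, SLC17A7 and GAD1 each reached 1 CPM in 4 of the 5 libraries, and RBFOX3, ELAVL3 and ELAVL4 in none.

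To show the DNA in front of annotated transcripts of these genes, the 250 bases upstream of a RefSeq start are printed for INA, STMN3, TUBB3 and PRPH, which stand for a gene that varied between replicates, the most abundant gene, the gene with the steadiest difference between the lines and a gene with almost no reads. Capitals mark the GC box, GGGCGG or its complement CCGCCC, in the first 3 sequences and the TATA box, TATAAA or its complement TTTATA, in the fourth sequence. The starts are those of RefSeq, and the windows of STMN3, TUBB3 and PRPH lie inside the wider GENCODE spans given for these genes further on. The sequences are from RefSeq, build GRCh38.p14, and are read 5′ to 3′ on the strand of the gene. The windows are chr10:103276888-103277137 on the plus strand for INA, chr20:63652767-63653016 on the minus strand for STMN3, chr16:89923092-89923341 on the plus strand for TUBB3 and chr12:49294897-49295146 on the plus strand for PRPH.
INA: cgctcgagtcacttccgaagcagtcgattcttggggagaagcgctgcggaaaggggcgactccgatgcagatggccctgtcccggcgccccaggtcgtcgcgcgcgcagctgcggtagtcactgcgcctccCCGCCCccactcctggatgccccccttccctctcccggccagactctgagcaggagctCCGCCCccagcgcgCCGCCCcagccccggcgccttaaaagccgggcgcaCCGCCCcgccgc
STMN3: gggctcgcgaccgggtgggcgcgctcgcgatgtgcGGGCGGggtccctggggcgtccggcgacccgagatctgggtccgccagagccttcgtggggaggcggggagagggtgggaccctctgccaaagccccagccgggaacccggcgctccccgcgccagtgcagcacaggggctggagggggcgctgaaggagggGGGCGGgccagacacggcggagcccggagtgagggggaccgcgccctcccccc
TUBB3: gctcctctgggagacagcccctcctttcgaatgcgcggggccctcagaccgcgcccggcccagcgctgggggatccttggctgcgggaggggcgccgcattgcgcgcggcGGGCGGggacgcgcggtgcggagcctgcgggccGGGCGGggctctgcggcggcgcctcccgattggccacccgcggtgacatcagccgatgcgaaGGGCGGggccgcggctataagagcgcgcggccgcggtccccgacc
PRPH: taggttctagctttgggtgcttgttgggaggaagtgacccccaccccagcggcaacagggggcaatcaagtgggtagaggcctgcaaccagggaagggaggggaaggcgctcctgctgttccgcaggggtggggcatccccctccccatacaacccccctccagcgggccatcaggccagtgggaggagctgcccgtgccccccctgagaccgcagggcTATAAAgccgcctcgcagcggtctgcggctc

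The INA window held 4 GC boxes, the TUBB3 window 3 and the STMN3 window 2. A GC box was present in 42.6% of the 35116 promoter windows of the same length in the RefSeq table. PRPH had no GC box and 1 TATA box, a motif present in 10.7% of all windows. CG dinucleotides numbered 39 in this TUBB3 window, 30 in INA, 28 in STMN3 and 10 in PRPH, beside a median of 11 over all windows. The RefSeq windows examined numbered 8 for 5 of the members, with 3 for MAP2 and 2 for TUBB3. Windows of NEFL, NEFM, NEFH, STMN2 and STMN4 were not examined. None of the 8 windows held the E-box letters CACGTG (6.34% of all windows) or the M-box core CATGTG and its complement CACATG (9.42% of all windows). These are the letters that MITF, the lineage factor of melanocytes, is known to bind. None of the 4 other windows, those of MAP2 and the upstream TUBB3 window, held a GC box or a TATA box. A match of letters describes the window only.

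NEFM and NEFH had reads in every Hermes 3A library and were low or at 0 in 501Mel cells, INA varied within both lines, and PRPH had almost no reads. NEFM, the medium subunit (ENSG00000104722, GRCh38 chr8:24913012-24919098), had 36 and 0 counts in the 501Mel libraries and 2724, 1424 and 1173 counts in the Hermes 3A libraries. Its level was 0.837 and 0 CPM in the 501Mel libraries and 65.4, 34.8 and 39.0 CPM in the Hermes 3A libraries. In RNA from a whole culture, fewer cells with a transcript and less transcript per cell cannot be told apart. The groups did not overlap, and the 3 Hermes 3A libraries lay within a 1.88-fold range of each other. The mean in Hermes 3A cells, 46.4 CPM ± 16.6 (SD, n = 3), was 55.5-fold higher than 501Mel replicate 1 and at least 586-fold higher than the level that 3 counts would give in 501Mel replicate 2. With the counts of each line summed, the ratio was 106-fold with a 95% exact binomial interval of 76.6 to 152, which covers counting error only.

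INA, which encodes alpha-internexin (ENSG00000148798, GRCh38 chr10:103277163-103290351), had 249 and 15 counts in the 501Mel libraries and 983, 247 and 184 counts in the Hermes 3A libraries. Its level was 5.79 and 0.396 CPM in the 501Mel libraries and 23.6, 6.04 and 6.12 CPM in the Hermes 3A libraries. The groups did not overlap, but 501Mel replicate 1 came close to the lower pair of Hermes 3A libraries, and the highest library of each line stood well apart from the rest of its group. The means were 3.09 CPM ± 3.81 (SD, n = 2) and 11.9 CPM ± 10.1 (SD, n = 3), a 3.86-fold difference that was smaller than the spread within the lines. On the log2 scale the fitted difference of 501Mel minus Hermes 3A was -2.03 ± 1.08 (SE), and it was -4.81 without 501Mel replicate 1, -1.16 without 501Mel replicate 2 and -1.03 without Hermes 3A replicate 1.

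NEFH, the heavy subunit (ENSG00000100285, GRCh38 chr22:29480230-29491390), was the least abundant of the 3 neurofilament genes measured. It had 1 and 4 counts in the 501Mel libraries and 55, 48 and 63 counts in the Hermes 3A libraries. The Hermes 3A level was 1.53 CPM ± 0.495 (SD, n = 3), and the groups did not overlap. With the counts of each line summed, the ratio was 23.9-fold with a 95% exact binomial interval of 10.0 to 74.4.

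PRPH, which encodes peripherin (ENSG00000135406, GRCh38 chr12:49293252-49298686), was at or under the level of 3 counts in all 5 libraries. It had 2 and 0 counts in the 501Mel libraries and 2, 3 and 2 counts in the Hermes 3A libraries. A difference between the lines was not detectable at this depth. An antisense gene that overlaps PRPH had 0 to 5 counts, and the strand setting of the counting is not given in the sources used here.

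**Figure D1:**
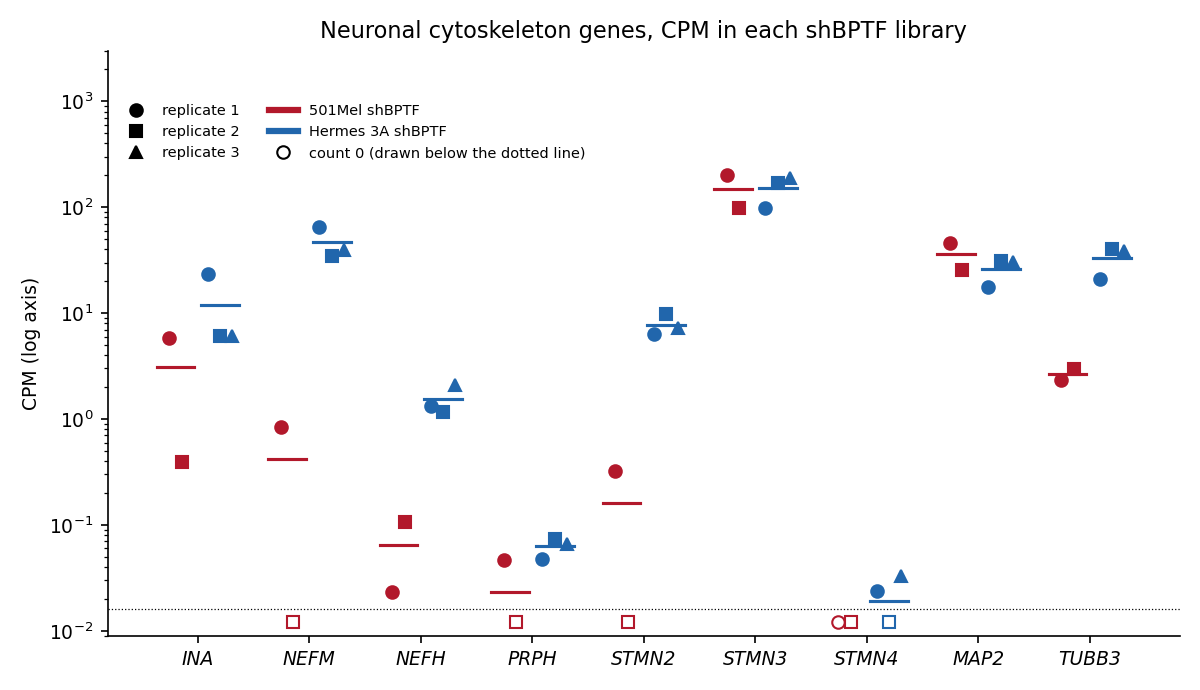
CPM (log axis) of the 9 genes with a row in each of the 5 shBPTF libraries, with 501Mel cells in red, Hermes 3A cells in blue, one symbol per replicate number, horizontal lines at the group means and open symbols for a count of 0. NEFM, NEFH, STMN2 and TUBB3 were higher in every Hermes 3A library than in either 501Mel library by a wide margin, INA by a narrow one, and STMN3 and MAP2 overlapped.

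The neuronal stathmins ranged from the highest to the lowest level of the whole group. STMN3 (ENSG00000197457, GRCh38 chr20:63639705-63657682, minus strand) had 8631 and 3705 counts in the 501Mel libraries and 4051, 6918 and 5732 counts in the Hermes 3A libraries. Its level was 201 and 97.9 CPM in the 501Mel libraries and 97.3, 169 and 191 CPM in the Hermes 3A libraries. The groups overlapped over nearly their whole range, with means of 149 CPM ± 72.6 (SD, n = 2) and 152 CPM ± 48.9 (SD, n = 3). The fitted log2 difference of 501Mel minus Hermes 3A was -0.09 ± 0.35 (SE), and it turned positive without 501Mel replicate 2 (0.32), without Hermes 3A replicate 3 (0.06) and with the replicate number as a block (0.06).

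STMN2, a stathmin of growing axons (ENSG00000104435, GRCh38 chr8:79610814-79666175), had 14 and 0 counts in the 501Mel libraries and 263, 399 and 216 counts in the Hermes 3A libraries. Its level was 0.325 and 0 CPM in the 501Mel libraries and 6.31, 9.76 and 7.18 CPM in the Hermes 3A libraries, and the groups did not overlap. The Hermes 3A mean of 7.75 CPM ± 1.79 (SD, n = 3) was 23.8-fold higher than 501Mel replicate 1 and at least 97.8-fold higher than the level of 3 counts in 501Mel replicate 2. STMN2 had reads in the same 4 libraries as NEFM and none in 501Mel replicate 2. Within the Hermes 3A libraries the 2 genes differed, as STMN2 was lowest in replicate 1, where NEFM was highest.

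STMN4 (ENSG00000015592, GRCh38 chr8:27235323-27258420, minus strand) had no count in 501Mel cells, and 1, 0 and 1 counts in Hermes 3A cells. Both lines were therefore at or under the level of 3 counts, and no ratio is given.

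The microtubule genes MAP2 and TUBB3 behaved differently from each other. MAP2 (ENSG00000078018, GRCh38 chr2:209424058-209734118) had 1975 and 973 counts in the 501Mel libraries and 741, 1264 and 913 counts in the Hermes 3A libraries. Its level was 45.9 and 25.7 CPM in the 501Mel libraries and 17.8, 30.9 and 30.4 CPM in the Hermes 3A libraries, and the groups overlapped. The fitted log2 difference was 0.38 ± 0.30 (SE), and it was -0.09 without 501Mel replicate 1.

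TUBB3 (ENSG00000258947, GRCh38 chr16:89921392-89938761) had 101 and 112 counts in the 501Mel libraries and 868, 1662 and 1157 counts in the Hermes 3A libraries. Its level was 2.35 and 2.96 CPM in the 501Mel libraries and 20.8, 40.7 and 38.5 CPM in the Hermes 3A libraries. The groups did not overlap, the 501Mel libraries differed by 1.26-fold, and the means of 2.65 CPM ± 0.432 (SD, n = 2) and 33.3 CPM ± 10.9 (SD, n = 3) were 12.6-fold apart. The fitted log2 difference was -3.68 ± 0.35 (SE), and it stayed between -3.92 and -3.51 over the 13 alternatives run, the narrowest range of any member. A protein-coding gene that overlaps TUBB3 on the same strand, AC092143.1, had 23 and 32 counts in the 501Mel libraries and 1, 5 and 3 counts in the Hermes 3A libraries, and how reads in the shared part were assigned is not given in the sources used here.

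Across the members, 5 of the 7 past the filter did not overlap and were higher in Hermes 3A cells (INA, NEFM, NEFH, STMN2 and TUBB3), where 31.9% of all 17918 genes tested had this pattern. None of the 7 was higher in both 501Mel libraries than in all Hermes 3A libraries, a pattern of 38% of all genes tested. By the rule used for all genes, a Benjamini-Hochberg adjusted p of 0.05 in the quasi-likelihood test of edgeR and a 2-fold difference, 4 of the 7 were called (NEFM, NEFH, STMN2 and TUBB3), each of them higher in Hermes 3A cells, beside 34.3% of all genes called in either direction, 17% called higher in Hermes 3A cells and 17.2% called higher in 501Mel cells. The genes were chosen on these same values, so that these counts describe the list and support nothing. NEFM, NEFH and STMN2 passed the filter only through the Hermes 3A libraries. The median log2 difference of the 7 genes was -3.68, beside 0.02 over all genes tested.

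**Figure D2:**
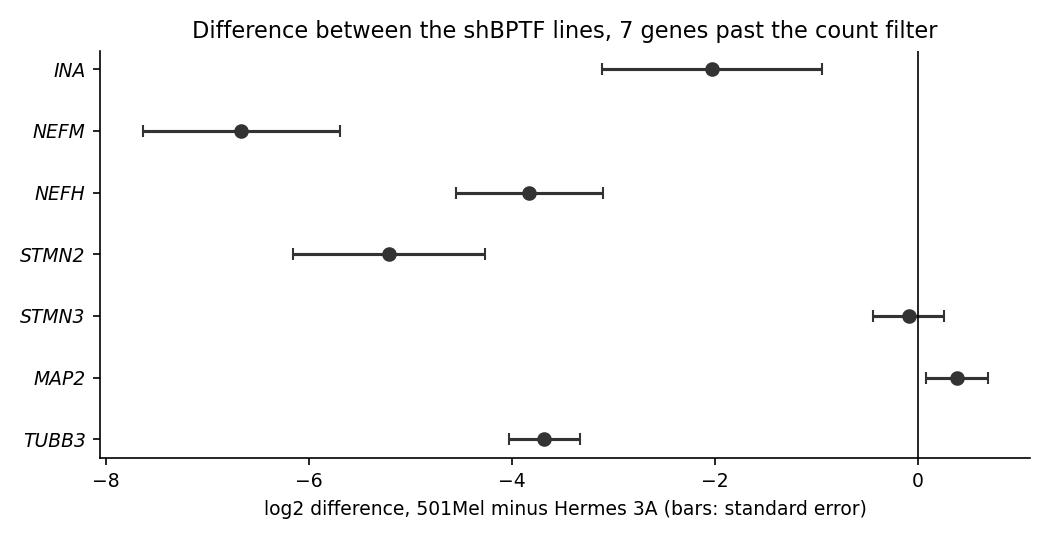
Fitted log2 difference of 501Mel minus Hermes 3A shBPTF libraries for the 7 members past the count filter, with bars for an approximate standard error taken from the quasi-likelihood test. NEFM (-6.67), STMN2 (-5.21), NEFH (-3.83) and TUBB3 (-3.68) lie far to the Hermes 3A side, INA (-2.03) has the widest bar, and STMN3 (-0.09) and MAP2 (0.38) lie near 0.

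The fitted values of NEFM, STMN2 and NEFH rest on very few 501Mel reads and therefore depend on the prior count of the fit and on the library left out. The log2 difference of NEFM was -9.80 without 501Mel replicate 1 and -5.81 without 501Mel replicate 2, and that of STMN2 was -7.21 and -4.45. That of NEFH, -3.83, was -4.45 without 501Mel replicate 2. The sign stayed negative for INA, NEFM, NEFH, STMN2 and TUBB3 in all 13 alternatives.

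Neuron markers were given beside these differences because the members are neuronal genes. A row was found for 6 of the 7 neuron markers, and their summed level was 4.38 to 8.83 CPM in the 501Mel libraries and 15.2 to 18.7 CPM in the Hermes 3A libraries. Most of the Hermes 3A sum came from GAD1, an enzyme of GABA synthesis, with 9.94 to 15.2 CPM. SYN1, a synaptic vesicle protein, and SLC17A7, a glutamate transporter, did not separate the lines, with 2.22 and 4.74 CPM against 0.696 to 3.79 CPM for SYN1 and 1.08 and 2.37 CPM against 0.840 to 1.30 CPM for SLC17A7 in 501Mel against Hermes 3A cells. RBFOX3, ELAVL3 and ELAVL4 were near 0 in both lines, as RBFOX3 did not exceed 0.408 CPM, ELAVL4 did not exceed 0.139 CPM, and ELAVL3 had a count of 0 in 3 libraries and at most 0.0528 CPM in the others. The part of these marker levels in the differences of the members was not tested.

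Levels of different genes were compared per kb of the union of their exons, since a longer transcript yields more reads. In 501Mel cells STMN3 came first with 49.2 CPM per kb ± 24.0 (SD, n = 2), followed by MAP2 with 3.10 ± 1.24, INA with 0.957 ± 1.18 and TUBB3 with 0.599 ± 0.0976 CPM per kb. NEFM, STMN2 and NEFH followed with means of 0.0955, 0.0689 and 0.0170 CPM per kb. The ranges of mean ± SD overlapped for MAP2 and INA, for INA and TUBB3, and for the neighbours from NEFM down to NEFH. STMN3 lay above MAP2 and TUBB3 above NEFM beyond their spread. Compared within each 501Mel library, MAP2 was above INA, with 3.97 against 1.79 and 2.22 against 0.123 CPM per kb.

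In Hermes 3A cells STMN3 again came first with 50.3 CPM per kb ± 16.1 (SD, n = 3). NEFM followed with 10.6 ± 3.78, TUBB3 with 7.52 ± 2.45, INA with 3.69 ± 3.13, STMN2 with 3.28 ± 0.760 and MAP2 with 2.28 ± 0.643 CPM per kb. NEFH had 0.404 CPM per kb ± 0.131. Each neighbouring pair from NEFM down to MAP2 overlapped within its spread, whereas STMN3 lay above NEFM and MAP2 above NEFH. Compared within each Hermes 3A library, STMN2 was above MAP2, with 2.67 against 1.54, 4.13 against 2.68 and 3.04 against 2.63 CPM per kb. Among all genes ranked per kb, 2.33% in the 501Mel libraries and 2.62% in the Hermes 3A libraries were as high as STMN3 or higher, whereas for NEFM the share was 55.5% in the 501Mel libraries and 14.0% in the Hermes 3A libraries.

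STMN3 took 91.0% of the summed level per kb of the 9 genes in the 501Mel libraries and 64.4% in the Hermes 3A libraries. NEFM took 0.177% and 13.6%, and TUBB3 took 1.11% and 9.64%. With the median transcript length of each gene in place of the exon union, STMN3 took 77.4% and 59.8%, MAP2 went from 5.73% to 20.2% in the 501Mel libraries and from 2.92% to 11.3% in the Hermes 3A libraries, and TUBB3 from 9.64% to 16.6% in Hermes 3A cells. STMN3 was first in both lines with either length, but the order behind it changed. TUBB3 and MAP2 then came before NEFM in Hermes 3A cells, and in 501Mel cells TUBB3 then came before INA and STMN2 before NEFM.

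**Figure D3:**
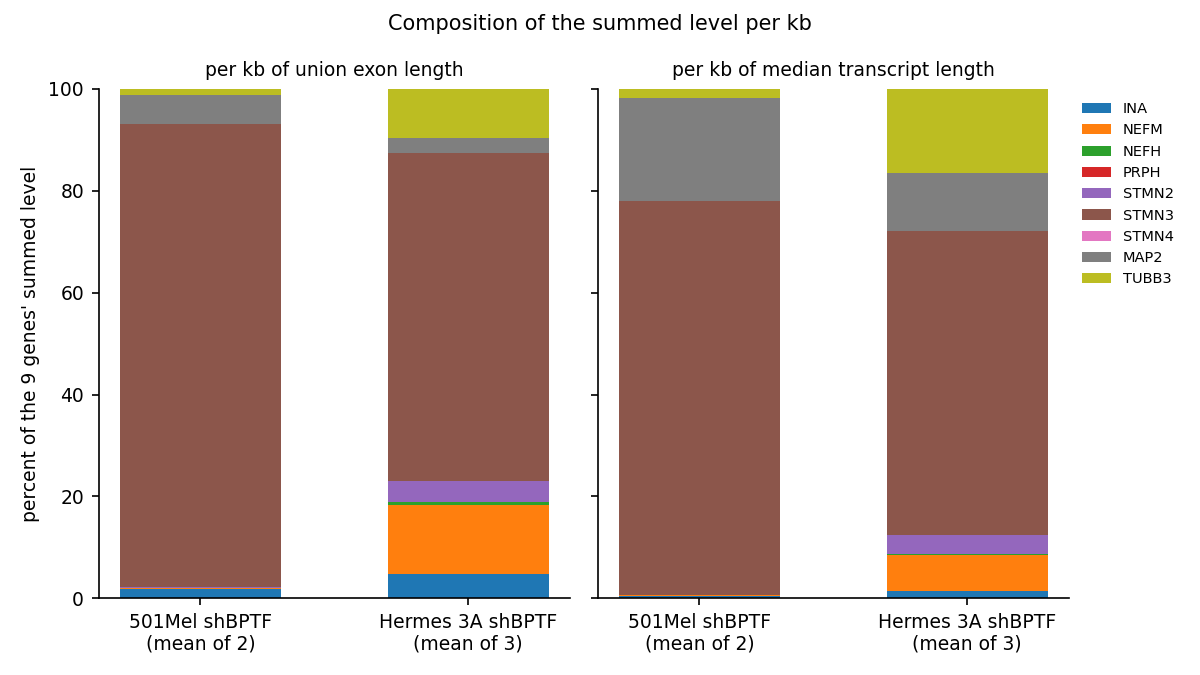
Share (percent) of each gene in the summed mean level per kb of the 9 genes, by line, with the union exon length on the left and the median transcript length on the right. STMN3 takes the largest share in all 4 bars (59.8% to 91.0%), and NEFM and TUBB3 take visible shares in Hermes 3A cells.

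The replicates of one line differed more for some members than for others. In 501Mel cells 5 of the 7 genes past the filter were higher in replicate 1 than in replicate 2 (INA, NEFM, STMN2, STMN3 and MAP2). INA was 14.6-fold higher in replicate 1, NEFM at least 10.6-fold and STMN2 at least 4.11-fold, both against the level of 3 counts. Of the 18212 genes with at least 10 counts in either library, 0.626% were as far apart as INA or farther on the log2 scale with 0.5 count added, and the median gene differed by 1.24-fold. STMN3 and MAP2, with 2.05-fold and 1.79-fold, lay less far out, as 13.5% and 18.3% of genes were at least as far apart. TUBB3 was 1.26-fold lower in replicate 1, with 47.4% of genes at least as far apart.

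In Hermes 3A cells the members split. INA was 3.90-fold higher in replicate 1 than in replicate 2 and 3.86-fold higher than in replicate 3, and 5.23% and 5.13% of genes were at least as far apart. NEFM was highest in the same library, by 1.88-fold and 1.68-fold. STMN2, STMN3, MAP2 and TUBB3 were lowest there, and TUBB3, for example, was 1.95-fold lower than in replicate 2 and 1.85-fold lower than in replicate 3. Replicates 2 and 3 were close to each other, with INA 1.01-fold, MAP2 1.02-fold and TUBB3 1.06-fold apart, while NEFH was 1.78-fold higher in replicate 3.

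Genes listed as markers of other cells also differed between these replicates. The 5 fibroblast markers, of which 0 reached 1 CPM in every library, summed to 16.8 and 3.28 CPM in the 501Mel libraries and to 10.3, 3.38 and 2.99 CPM in the Hermes 3A libraries, and so were highest in replicate 1 of each line, as INA and NEFM were. In the 501Mel libraries all 5 were higher in replicate 1 than in replicate 2. Most of that sum came from LUM, with 8.34 and 2.32 CPM, and COL1A1, with 6.53 and 0.740 CPM. In Hermes 3A replicate 1 most of the sum came from LUM, which had 7.35, 1.13 and 0.964 CPM in the Hermes 3A libraries. THY1 was also highest in replicate 1, with 2.42, 1.05 and 1.16 CPM, whereas COL1A1 was lowest there, with 0.456, 1.05 and 0.532 CPM. DCN, a fibroblast proteoglycan, did not exceed 0.163 CPM, and COL3A1 had a count of 0 in Hermes 3A replicate 1. S100B, listed here with the Schwann cell and glia markers, had 21.2 and 8.37 CPM in 501Mel cells and 2.11, 10.3 and 10.0 CPM in Hermes 3A cells. It was thus higher in 501Mel replicate 1 than in replicate 2 and lowest in Hermes 3A replicate 1, as STMN3 and MAP2 were. RNA from a whole culture does not show which cells the reads of such a marker came from. The melanocyte lineage markers summed to 12718 and 19661 CPM in the 501Mel libraries and to 31651 to 32728 CPM in the Hermes 3A libraries, mostly from PMEL and TYRP1. DCT went the other way, with 1068 and 1300 CPM in 501Mel cells and 7.37 to 13.1 CPM in Hermes 3A cells, and MITF was also no higher in the Hermes 3A libraries. The part of these differences in the levels of the members was not tested.

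Other genes of the same cytoskeletal systems were compared between the lines with the quasi-likelihood test of edgeR and Benjamini-Hochberg adjustment over all 17918 genes. The lists of these genes were chosen with earlier results of these data known. Of 64 genes tested in 4 lists, 14 were called higher in the 501Mel libraries and 14 higher in the Hermes 3A libraries, together 43.8% beside 34.3% of all genes, and their median log2 difference of 501Mel minus Hermes 3A was 0.35. In the intermediate filament list 1 of 9 genes was called higher in the 501Mel libraries and 3 higher in the Hermes 3A libraries, and the median was 0.73. SYNM (104-fold, adjusted p = 0.000154) and NES (15.9-fold, adjusted p = 0.000808), filament proteins that co-assemble with vimentin, and the lamin gene LMNA (2.17-fold, adjusted p = 0.00401) were higher in Hermes 3A cells, as NEFM and NEFH were in the values above. SYNM had 14 and 5 counts in the 501Mel libraries, and its 104-fold ratio rests on these few reads. LMNB1, a B-type lamin of the nuclear envelope, was 17.3-fold higher in 501Mel cells (adjusted p = 1.51e-05). VIM had the highest mean level of this list, 1265 CPM ± 75.4 (SD, n = 2) in the 501Mel libraries and 2321 CPM ± 384 (SD, n = 3) in the Hermes 3A libraries. This difference was under the 2-fold limit (adjusted p = 0.0075 in edgeR). Without Hermes 3A replicate 1, VIM was called higher in Hermes 3A cells (log2 difference -1.03, adjusted p = 0.00412 in edgeR). The log2 difference moved from -4.06 to -5.15 for NES and from -6.47 to -7.07 for SYNM without 501Mel replicate 1, and to -3.46 for NES without replicate 2. Without 501Mel replicate 2 the list had 7 calls, as KRT8, KRT18 and BFSP1 were then called higher in 501Mel cells.

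Among the tubulins, 2 of 15 genes were called in each direction, with a median of 0.32. TUBB6 (5.45-fold, adjusted p = 0.000142) and TUBA1A (4.63-fold, adjusted p = 0.00573) were higher in Hermes 3A cells, as TUBB3 was, whereas TUBB4A (4.03-fold, adjusted p = 0.000335) and TUBD1 (2.50-fold, adjusted p = 0.00688) were higher in 501Mel cells in the edgeR test. TUBB had the highest mean level of the list, with 1697 CPM ± 46.8 (SD, n = 2) and 992 CPM ± 166 (SD, n = 3), under the 2-fold limit.

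In the list of microtubule-associated genes 7 of 23 were called higher in the 501Mel libraries and 6 higher in the Hermes 3A libraries, with a median of 0.31. DPYSL5, a collapsin response mediator (152-fold, adjusted p = 5.96e-05), MAPT, the tau gene (7.02-fold, adjusted p = 0.00156), and MAP7 (5.40-fold, adjusted p = 0.000932) were higher in 501Mel cells. MAP6 (0 counts in both 501Mel libraries, at least 10.4-fold higher in Hermes 3A cells against 3 counts in each library, adjusted p = 0.00122), DCLK1 (5.56-fold, adjusted p = 0.0207) and MAP4, the most abundant gene of the list (3.89-fold, adjusted p = 0.000283), were higher in Hermes 3A cells. DPYSL5 had 4, 8 and 2 counts in the Hermes 3A libraries, and its 152-fold ratio rests on these few reads. Without 501Mel replicate 1 the log2 difference of DCLK1 moved from -2.52 to -4.23, and without replicate 2 to -1.78. The calls higher in 501Mel cells fell to 4 without 501Mel replicate 1.

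Of 17 genes that carry, anchor or modify axonal filaments and membranes, 4 were called higher in the 501Mel libraries and 3 higher in the Hermes 3A libraries, with a median of 0.46. The axonal kinesin heavy chain KIF5A (adjusted p = 0.000226), the CDK5 activator CDK5R1 (2.74-fold, adjusted p = 0.000571) and the cytolinker PLEC (2.97-fold, adjusted p = 0.00163), which was the most abundant, were higher in Hermes 3A cells. KIF5A had 1 count in each 501Mel library and 98, 141 and 120 counts in Hermes 3A cells, a ratio of 129-fold with a 95% exact binomial interval of 35.4 to 1069 for counting error only. GAP43, a growth cone protein (adjusted p = 0.0089), had 39 and 10 counts in the 501Mel libraries and 2, 0 and 0 counts in the Hermes 3A libraries. KIF1A (7.74-fold, adjusted p = 0.0128) and ANK3 (6.50-fold, adjusted p = 0.000324) were higher in 501Mel cells, and KIF1A was not called without 501Mel replicate 2 (adjusted p = 0.108 in edgeR). Its log2 difference of 2.81 was 1.70 in that case, 3.41 without 501Mel replicate 1 and 3.47 without Hermes 3A replicate 2. SYNM, MAP6 and KIF5A passed the filter only through the Hermes 3A libraries, and DPYSL5 and GAP43 only through the 501Mel libraries. The calls of these genes are therefore a description of their values.

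**Figure D4:**
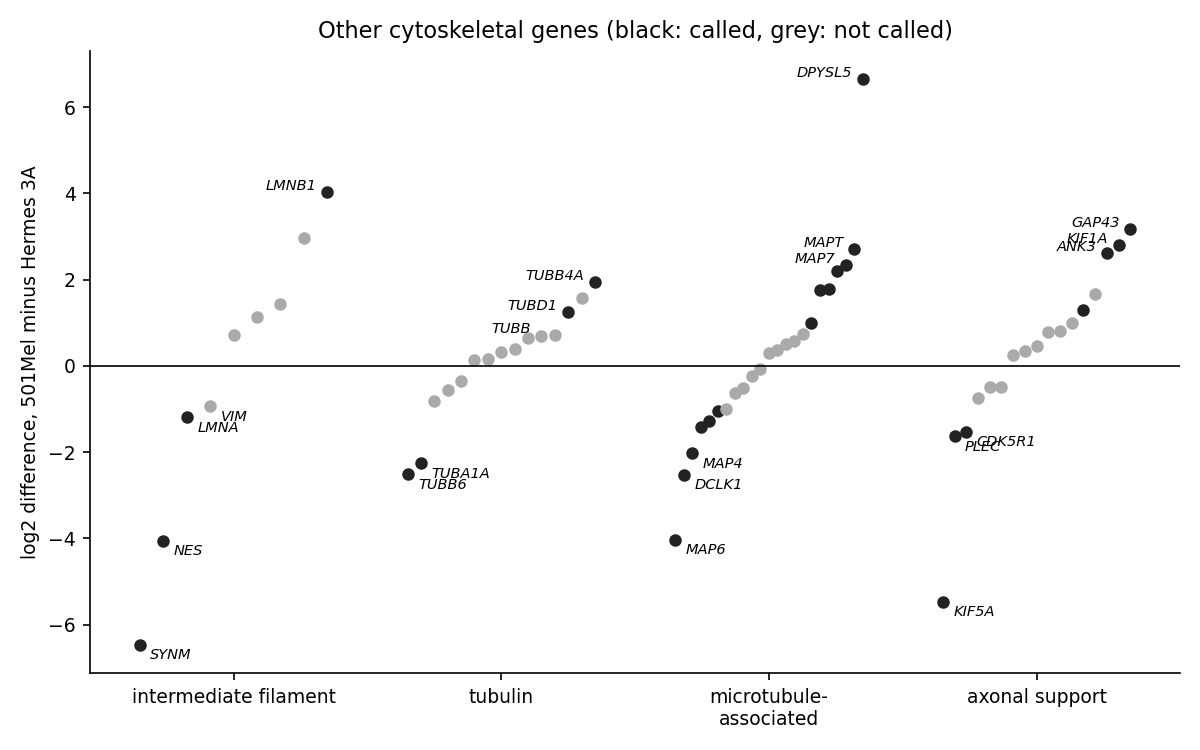
Log2 difference of 501Mel minus Hermes 3A for the 64 tested genes of the 4 lists, ordered within each list, with called genes in black, other genes in grey and the genes named by rule labelled. Each list holds called genes on both sides of 0, with DPYSL5 (6.65) and SYNM (-6.47) farthest out.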

How the data were processed

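Total RNA of 501Mel and Hermes 3A cells was depleted of rRNA, and per the labels the libraries were treated with duplex-specific nuclease, which lowers the share of abundant transcripts. The authors deposited raw read counts per gene, 1 file per replicate, without normalization. The submitters' processing notes name CASAVA 1.8, TopHat 1.4.1, Bowtie 0.12.7 and hg19. The counter, annotation and strand setting are not given in the sources used here.

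Of 40263 gene identifiers, 36899 had a GENCODE 29 name, from which coordinates and lengths on GRCh38 were taken. Genes listed in the files of both lines (31029) entered the fit, and 9234 listed for 1 line only did not. The fit used edgeR 4.0.16 (TMM, filterByExpr, quasi-likelihood test, prior count 2) in R 4.3.3, on 17918 genes after the filter, with an adjusted p of 0.05 and a 2-fold difference as limits. The prior count of 2 applies to the log2 differences. Their SE was derived from the quasi-likelihood test itself and is therefore approximate for the differences given. DESeq2 1.42.0 was an alternative. Scripts were tested on simulated data. Ratios of summed counts have 95% exact binomial intervals, and intervals and floors of 3 counts cover counting error only. Promoters are those of RefSeq. The members and gene lists were chosen with earlier results of these data known. Named were all members and, per list, up to 3 called genes with the largest difference in each direction and the gene with the highest mean CPM. KRT8, KRT18 and BFSP1 were named after their values were seen. NEFL, MARCKS and the markers NEUROD1, KRT5 and KRT1 had no row under their GENCODE 29 identifiers, and rows under older identifiers were not looked for. The 5 keratinocyte markers, of which 3 had a row, summed to 32.8 to 34.2 CPM in the 501Mel libraries and 43.5 to 47.6 CPM in the Hermes 3A libraries, nearly all from KRT10. The summed Schwann cell and glia list is not reported here.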

Additional observations from a re-analysis of the deposited data

How the results depend on the processing

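Alternatives were other size factors, library totals, DESeq2, no filter, the replicate number as a block and leaving out each library, and a count of 0 for genes that one line does not list, which was chosen after seeing the data. Without 1 library, the genes called higher in 501Mel cells numbered 2210 to 3181 and those higher in Hermes 3A cells 2632 to 3299, beside 3084 and 3055. The lists had 4 to 7 calls (intermediate filament), 4 to 5 (tubulin), 10 to 14 (microtubule-associated) and 6 to 8 (axonal support). Where a line keeps 1 library, that library is assumed to vary like the other line. With the replicate block, which the labels do not show to be a pairing, 2735 and 2906 genes were called, and deviations of replicates numbered 1 correlated at 0.11 and those numbered 2 at 0.14 across genes. The number of members at least 2-fold apart was 5 in all 11 alternatives. Of the 20 list genes named as called, KIF1A lost its call without 501Mel replicate 2, and GAP43 was below the filter without 501Mel replicate 1 and not tested there. The log2 differences of MAP6, KIF5A and GAP43, with few or no counts in one line, were -7.49, -7.11 and 4.98 with DESeq2 against -4.03, -5.47 and 3.16 in edgeR. The difference of INA was -2.87 with the replicate block. The depth limits PRPH, STMN4 and the 501Mel values of NEFM, STMN2 and NEFH.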

Other observations

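KRT8 and KRT18, the paired keratins of simple epithelia, also varied between replicates in the way INA did. KRT8 had 91 and 4 counts in the 501Mel libraries and 24, 9 and 8 counts in the Hermes 3A libraries. KRT18 had 204 and 18 counts in the 501Mel libraries and 27, 3 and 2 counts in the Hermes 3A libraries. Both genes were highest in replicate 1 of each line. BFSP1, a filament protein of the lens, had 353 and 78 counts in the 501Mel libraries but 68, 109 and 69 counts in the Hermes 3A libraries. These genes were singled out after their values were seen, and the cause of the spread was not tested. In the edgeR comparison of the lines none of them was called (adjusted p = 0.244, 0.0582 and 0.127). KRT18 was called in 5 alternatives, with DESeq2, with no filter, with the replicate block, without 501Mel replicate 2 and without Hermes 3A replicate 1 (adjusted p = 0.00912 to 0.0265), and KRT8 and BFSP1 without 501Mel replicate 2 (adjusted p = 0.0326 and 0.0149).

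STMN1, the widely expressed stathmin and no member of the neuronal group, was 4.79-fold higher in 501Mel cells (adjusted p = 5.48e-05 in edgeR), with 318 and 355 CPM in the 501Mel libraries and 69.5, 75.2 and 66.1 CPM in the Hermes 3A libraries. It was named after its values were seen. Its direction was opposite to that of STMN2, and STMN3 did not separate the lines.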
